A study of Mus musculus with 24 samples.

Results

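The 8 genes described here, Prg4, Icam2, Selp, F5, F10, Serpinb2, Fn1 and Saa3, are genes associated with the large macrophages of the peritoneal cavity. They form a list given by name, with no threshold on these counts, and the list was drawn up with earlier results of these data known. Each was matched by its Ensembl identifier to 1 of the 45706 gene rows of the count table, and all 8 were found.

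The study compared tissue-resident macrophages sorted ex vivo with macrophage-like cells (LCs) grown in vitro from the same organs. Microglia (MG) came from brain, Kupffer cells (KCs) from liver, peritoneal macrophages (PMs) from the peritoneal cavity and alveolar macrophages (AMs) from lung, and each had a cultured counterpart (MG-LCs, KC-LCs, PM-LCs and AM-LCs), with 3 libraries in each of the 8 groups. All mice were female C57BL/6J of 8 to 12 weeks with no genetic change, and no group received an immune stimulus. Sorting used CD45 and CD11b for MG, with F4/80 and TIM-4 added for KCs, F4/80 and CD115 for PMs and Siglec-F for AMs. Cultures were kept for 14 days in polyethylenimine-coated flasks with M-CSF for KC-LCs and PM-LCs, M-CSF and IL-34 for MG-LCs, and GM-CSF without glucose for AM-LCs. Oxygen was 3% for all but the AM-LCs, which were kept at atmospheric oxygen. The cultures were started from unsorted organ suspensions, with several mice pooled per flask for brain, lung and peritoneum, so each also received other cells of its organ. A peritoneal lavage holds both large and small PMs, and the sorting markers given do not say which of them the sorted PMs held.

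Large PMs are resident macrophages of the serous cavity that depend on the transcription factor GATA6 and on retinoic acid from surrounding tissue. They patrol the cavity fluid, attach to injured surfaces and form clots there together with factor V and other coagulation proteins. Prg4 encodes lubricin, a lubricating glycoprotein, and Fn1 encodes fibronectin, a matrix protein to which integrins bind. Icam2 is an adhesion molecule that binds the integrin LFA-1 and Selp encodes P-selectin, which binds the ligand PSGL-1. F5 and F10 encode coagulation factors V and X, which join to form the complex that makes thrombin. Serpinb2 encodes plasminogen activator inhibitor 2, and Saa3 encodes a serum amyloid A protein of the acute-phase response that is made outside the liver as well.

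Counted reads per library ran from 29569486 to 47105111, so that 3 reads corresponded to 0.0663 to 0.114 CPM (reads scaled to a common library size by TMM). The sorted groups carried their defining markers, among them Gata6 at 144 CPM and Timd4 at 1492 CPM on average in PMs. In the cultures these were lower or near 0: PM-LCs held Gata6 at 17 CPM and Timd4 at 3.88 CPM, and KC-LCs held the Kupffer cell lectin Clec4f at 0.0560 CPM, against 11750 CPM in sorted KCs. The summed level of 11 fibroblast and mesothelium genes reached 30890 CPM in MG-LC replicate 1, 2248 CPM in PM-LC replicate 2 and 1705 CPM in AM-LC replicate 3, the highest of their groups. KC replicate 1 held the most T and NK cell RNA of the 24 libraries, 174 CPM over 6 genes. Nothing states which mice or flasks gave which library, so p-values measure the spread between these libraries.

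Of the 8 genes, 5 lie on chromosome 1 in the mouse build GRCm38. Selp (ENSMUSG00000026580, chr1:164115264-164150026, plus strand) and F5 (ENSMUSG00000026579, chr1:164151838-164220277, plus strand) are direct neighbours, with 1811 bases between the end of the one and the start of the other. The antisense genes Gm16587 and Gm16548 overlap exons of this pair, and the library kit does not mark strand. Serpinb2 (ENSMUSG00000062345, chr1:107511423-107535478, plus strand) shares 291 exonic bases with Serpinb10, which was counted at 646 to 1246 reads per PM library. Fn1 (ENSMUSG00000026193, chr1:71585520-71653200, minus strand) and Prg4 (ENSMUSG00000006014, chr1:150449412-150466165, minus strand) overlap Apol7d and Tpr of the other strand over 292 and 204 exonic bases. Icam2 (ENSMUSG00000001029) lies at chr11:106377656-106388075 on the minus strand, F10 (ENSMUSG00000031444) at chr8:13037308-13056676 on the plus strand and Saa3 (ENSMUSG00000040026) at chr7:46711998-46715700 on the minus strand.

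Promoter windows, the 250 bases before each start in RefSeq (GRCm38.p6), were at hand for 5 of the 8 genes, namely Selp, F5, F10, Serpinb2 and Saa3. Those of Selp and F5 are shown because the pair are neighbours with a like pattern, and those of Serpinb2 and Saa3 because both genes varied widely between cultures. Each is written 5′ to 3′ on the gene's strand, with motif matches in capitals, as follows.
Selp, chr1:164115014-164115263, plus strand: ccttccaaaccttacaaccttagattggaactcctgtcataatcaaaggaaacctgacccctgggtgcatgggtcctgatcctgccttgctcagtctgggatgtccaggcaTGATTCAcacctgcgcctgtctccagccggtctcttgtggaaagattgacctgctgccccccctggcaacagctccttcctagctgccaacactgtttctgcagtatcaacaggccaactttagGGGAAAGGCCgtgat
F5, chr1:164151585-164151834, plus strand: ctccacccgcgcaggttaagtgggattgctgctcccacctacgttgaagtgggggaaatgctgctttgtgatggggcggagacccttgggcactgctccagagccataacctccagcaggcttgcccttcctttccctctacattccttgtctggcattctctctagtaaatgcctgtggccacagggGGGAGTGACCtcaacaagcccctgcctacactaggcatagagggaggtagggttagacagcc
Serpinb2, chr1:107511173-107511422, plus strand: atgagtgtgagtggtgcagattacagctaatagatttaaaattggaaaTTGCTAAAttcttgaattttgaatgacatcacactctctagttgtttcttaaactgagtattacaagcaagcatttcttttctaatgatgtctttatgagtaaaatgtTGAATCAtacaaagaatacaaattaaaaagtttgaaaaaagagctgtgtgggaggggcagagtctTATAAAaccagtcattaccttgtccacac
Saa3, chr7:46715677-46715926, minus strand: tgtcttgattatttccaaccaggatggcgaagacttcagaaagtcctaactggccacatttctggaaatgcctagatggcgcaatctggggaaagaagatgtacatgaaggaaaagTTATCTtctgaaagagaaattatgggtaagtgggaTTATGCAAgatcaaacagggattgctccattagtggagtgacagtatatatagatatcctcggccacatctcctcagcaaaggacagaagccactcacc

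Motifs were searched on both strands of these windows and of 27025 mouse promoters of the same length. These hold a single promoter per gene symbol, do not cover every chromosome, and are called all promoters below. A GATA motif (AGATAA or TGATAA) was present in Saa3 at -134 to -129, counted back from the start, and in 17% of all promoters. The C/EBP letters TTGCNNAA were present in Saa3 at -99 to -92 and in Serpinb2 at -202 to -195, against 9.55% of all promoters. Selp and Serpinb2 held the AP-1 letters TGANTCA, present in 6.87% of all promoters, at -139 to -133 and -94 to -88. Selp, F5 and F10 held the NF-kB letters GGGA and CC with any 4 bases between them, as did 17.3% of all promoters. A TATA box (TATAAA), found in 13% of all promoters, was at -29 to -24 in Serpinb2. These are matches of letters in a window and were not tested against the counts.

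In sorted PMs the 8 genes were abundant transcripts. Together they took 3.65%, 4.09% and 4.29% of the counted reads of the 3 PM libraries, against at most 0.147% in any AM library, 0.0277% in any KC library and 0.000394% in any MG library. By mean CPM, Fn1 ranked 3, Saa3 5, Prg4 12, Selp 78, Serpinb2 83, Icam2 98, F5 103 and F10 240 of all genes in PMs. Corrected for exonic length, the order of levels was Saa3 at 5416 CPM per kilobase of exon (RPKM), Fn1 at 1536, Prg4 at 1299, Icam2 at 549, Serpinb2 at 513, Selp at 300.1, F10 at 176 and F5 at 138. In these bulk libraries, fewer cells of a type and less RNA per cell cannot be told apart.

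**Figure D1:**
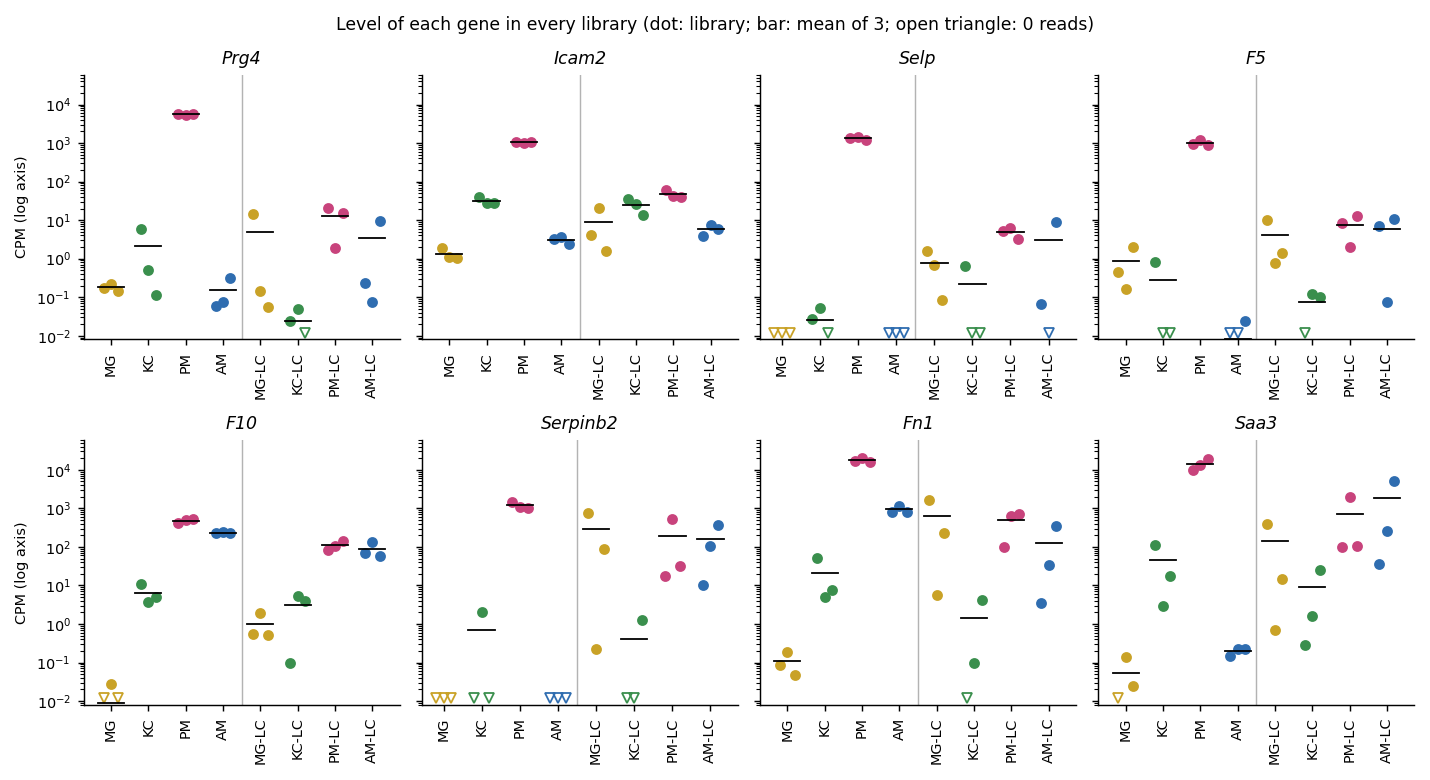
Level of each of the 8 genes in CPM on a log axis, for every library of the sorted groups (left of the grey line) and the cultures (right); dots are libraries, bars are means of 3, and open triangles at the bottom mark libraries with 0 reads. The 3 PM libraries lie above all other libraries in each panel; for F10 the sorted AMs (230 to 240 CPM) come next.

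All 8 genes were higher in sorted PMs than in each of the other 3 sorted populations. This held for 706 of the 15732 genes tested, or 4.49%. Selp and Serpinb2 passed the filter on low counts only through PMs, so for them only a higher level in PMs could be called. Taken singly, 24.1% of genes were higher in PMs than in MG, 15.8% higher than in KCs and 18.6% higher than in AMs, and the 3 comparisons share the PM libraries. The PM libraries also lay above every MG, KC and AM library for 8 of 8 genes, where 67.7%, 43.1% and 57.2% of genes did not overlap in either direction. The median log2 fold change of the 8 genes was 15.50 against MG and 15.27 against AMs, with genes at 0 reads set at their lower bound, and 10.21 against KCs, while over all genes tested it was -0.04, 0.08 and -0.07.

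Among MG, KCs and AMs themselves the levels were also unequal. By edgeR 5 of the 8 genes were lower in MG than in KCs, as were 24.7% of all genes. Between MG and AMs 3 were lower in MG and 1 higher (27.3% and 27.4% of all genes), and between KCs and AMs 3 were higher in KCs and 2 lower (24.2% and 19.3%). KCs thus came next to PMs for Icam2 and Saa3, and AMs did for F10 and Fn1. For Prg4 the lead of KCs rested on KC replicate 1, without which it was not called over MG (MG against KCs -0.83, edgeR adjusted p = 0.291) or AMs (1.02, edgeR adjusted p = 0.202). The call over MG was also lost without MG replicate 1, 2 or 3 (edgeR adjusted p 0.0613 to 0.0768). The call over AMs was also lost without AM replicate 1 or 2 (edgeR adjusted p = 0.0722 and 0.0736).

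Among the matrix genes, Prg4 stood at 5657, 5394 and 5630 CPM in the 3 PM libraries. It was at 0.144 to 0.216 CPM in MG, 0.0598 to 0.323 CPM in AMs and 0.114, 0.520 and 5.81 CPM in KCs, the highest of these being KC replicate 1. The PM libraries lay close together and far above all others. The log2 fold change was 11.33 ± 1.21 (SE) against KCs (edgeR quasi-likelihood, Benjamini-Hochberg adjusted p = 3.4e-05), 14.96 ± 1.41 against MG (edgeR adjusted p = 5.64e-06) and 15.09 ± 1.42 against AMs (edgeR adjusted p = 7.68e-06). Between MG and AMs no difference in Prg4 was detectable (log2 difference 0.13 ± 1.48, edgeR adjusted p = 0.957).

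Fn1 was at 17216, 20691 and 15923 CPM in PMs, and AMs held it at 827, 1151 and 827 CPM. KCs had 52.4 CPM in replicate 1 and 4.99 and 7.63 CPM in the others, and MG had 0.0478 to 0.189 CPM. The order PMs, AMs, KCs, MG was thus free of overlap, and each step of it passed the test. PMs exceeded AMs by a log2 fold change of 4.27 ± 0.76 (edgeR adjusted p = 0.00101), KCs against AMs gave -5.41 ± 0.81 (edgeR adjusted p = 0.000263) and MG against KCs gave -7.70 ± 1.03 (edgeR adjusted p = 0.000111). The difference between PMs and AMs no longer passed when all 24 libraries shared 1 estimate of spread (edgeR adjusted p = 0.0759).

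Of the adhesion genes, Icam2 had 1062, 1030 and 1044 CPM in PMs. KCs came next at 40.1, 28.0 and 27.7 CPM, then AMs at 2.36 to 3.69 CPM and MG at 1.03 to 1.86 CPM. No 2 of these groups overlapped and all steps of the order passed the test. Against KCs the log2 fold change in PMs was 5.03 ± 0.27 (edgeR adjusted p = 2.42e-07), and MG against AMs gave -1.26 ± 0.26 (edgeR adjusted p = 0.00177). Endothelial cells also carry ICAM-2 and P-selectin, and the summed level of 10 endothelial genes was 48.3 to 59.2 CPM in PMs and 219 to 491 CPM in KCs. In PMs all but 1.33 to 3.04 CPM of that sum was Eng (endoglin).

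P-selectin RNA was all but absent outside PMs. Selp was counted 39429, 53719 and 43922 times in the PM libraries (1317, 1465 and 1191 CPM), 0 times in the 6 MG and AM libraries, and 1, 2 and 0 times in KCs. Against a floor of 3 reads over the group, Selp was at least 54770-fold higher in PMs than in MG and at least 49780-fold higher than in AMs. Against KCs the ratio of pooled counts was 48690 (95% counting interval 16660 to 236100, which covers counting error only). Platelets also carry P-selectin and factor V, and of 8 platelet genes Pf4 stood at 3273 CPM on average in PMs, while the other 7 summed to 0.245 to 1.10 CPM.

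Its neighbour F5 was at 933, 1225 and 907 CPM in PMs. In MG it was at 0.162, 0.442 and 1.99 CPM, in KCs only replicate 1 held any reads (0.842 CPM), and AMs held 1 read in all. MG, KCs and AMs thus lay near the detection floor, with MG above AMs by a log2 difference of 6.12 ± 1.88 (edgeR adjusted p = 0.0168), which rests on that single AM read and was not called without MG replicate 3 or any 1 AM library (edgeR adjusted p 0.0506 to 0.0781). PMs exceeded MG by 10.25 ± 1.09 (edgeR adjusted p = 1.53e-05) and KCs by 11.81 ± 1.19 (edgeR adjusted p = 2.11e-05), both as log2 fold changes.

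F10 was the member least restricted to PMs. It was at 426, 485 and 536 CPM in PMs and at 230, 240 and 236 CPM in AMs, against 3.69 to 10.7 CPM in KCs and 1 read in all MG libraries. PM and AM libraries did not overlap, and the log2 fold change was 1.05 ± 0.32 (edgeR adjusted p = 0.0235). That call was lost when any of 5 libraries was left out, PM replicates 2 and 3 and AM replicates 1, 2 and 3 (edgeR adjusted p 0.0538 to 0.078), and with 1 estimate of spread over 24 libraries (edgeR adjusted p = 0.302). F7, the gene of the factor VII protease that activates factor X, was at 706 CPM in AMs and 137 CPM in PMs on average.

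Serpinb2 was at 1480, 1099 and 1037 CPM in PMs. Of the other 9 sorted libraries only KC replicate 2 held reads, 80 in all (2.08 CPM). The gene was at least 49080-fold higher in PMs than in MG and at least 44620-fold higher than in AMs on the floor of 3 reads. Against KCs the log2 fold change was 10.74 ± 1.42 (edgeR adjusted p = 0.00101), and it ran from 10.18 to 18.51 over the fits without 1 library.

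Saa3, the acute-phase gene, spread most among the PM libraries, at 10175, 13551 and 18616 CPM. KCs held 113, 2.96 and 17.9 CPM, AMs 0.150 to 0.230 CPM and MG 0 to 0.135 CPM. KCs lay above AMs and MG without overlap, and the KC to AM step was 7.77 ± 1.27 in log2 (edgeR adjusted p = 0.000522). PMs exceeded KCs by a log2 fold change of 8.30 ± 1.19 (edgeR adjusted p = 0.00029). KC replicate 1, which held the highest Saa3, Fn1, F10, F5, Icam2 and Prg4 of its group, carried 1 Selp read beside 214 Prg4 reads, or 0.467 per 100, where the PM libraries carried 21.2 to 27.2 per 100. Saa3, Fn1 and Icam2 stood there at 1940, 901 and 690 per 100 Prg4 reads, against at most 331, 384 and 19.1 in PM libraries. The source of these reads in KC replicate 1 was not tested. Without that library all 8 genes stayed higher in PMs than in KCs.

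After culture, most of this RNA was gone. The question of the comparison of sorted PMs with PM-LCs is how far the genes of the PM stay expressed in vitro. The share of the 8 genes fell from the 3.65 to 4.29% of counted reads above to 0.0334%, 0.304% and 0.0897% in the 3 PM-LC libraries. All 8 genes were lower in each PM-LC library than in each sorted one, which was the case, in either direction, for 48.8% of the 13581 genes tested. By edgeR, 7 of the 8 fell in PM-LCs, all but Serpinb2, where 28.9% of all genes were called and 12.1% were lower in culture. The median log2 fold change of sorted over cultured was 4.82 for the 8 genes and -0.01 for all genes.

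Prg4 had the deepest fall. PM-LCs held 20.9, 1.87 and 14.9 CPM, or 0.376%, 0.0337% and 0.268% of the sorted mean. The log2 fold change of sorted over cultured was 8.79 ± 0.95 (edgeR adjusted p = 0.000724), and over the fits without 1 library it ran from 8.31 to 9.35. The matrix gene Fn1 stood at 99.1, 651 and 715 CPM in PM-LCs, 0.553%, 3.63% and 3.99% of the sorted mean (5.19 ± 0.74, edgeR adjusted p = 0.00243). PM-LC replicate 2 was the lowest of its group for Prg4, while for Fn1 replicate 1 was the lowest.

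Of the adhesion genes, Selp fell to 5.33, 6.08 and 3.16 CPM, between 0.239% and 0.459% of the sorted mean (log2 fold change 8.10 ± 0.34, edgeR adjusted p = 2.63e-05). Icam2 kept more, with 60.5, 43.1 and 39.8 CPM or 3.81% to 5.79% (4.45 ± 0.22, edgeR adjusted p = 3.55e-05). Icam2, F10 and Selp were the most even of the 8 between the 3 cultures.

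The coagulation genes parted in culture. F5 fell to 8.43, 1.96 and 12.6 CPM, or 0.192% to 1.24% of its sorted mean (7.05 ± 0.72, edgeR adjusted p = 0.000565). F10 kept the most of the 8 genes by its mean, with 81.5, 104 and 144 CPM in PM-LCs, 16.9%, 21.7% and 29.8% of the sorted mean (2.13 ± 0.25, edgeR adjusted p = 0.00109). Serpinb2 was at 17.6, 529 and 32.2 CPM, 1.46%, 43.9% and 2.68% of the sorted mean, and did not pass the test (2.64 ± 1.18, edgeR adjusted p = 0.138). It passed without PM-LC replicate 2 (5.63, edgeR adjusted p = 5.61e-05) and, with all libraries, by limma-voom (4.16, adjusted p = 0.0173).

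Saa3 was at 98.9, 1982 and 107 CPM in PM-LCs, 0.701%, 14% and 0.759% of the sorted mean. Replicate 2 again stood far above the other cultures, yet below every sorted library. The log2 fold change was 4.27 ± 1.24 (edgeR adjusted p = 0.0383). This call was lost without any 1 of PM replicates 1, 2 and 3 or PM-LC replicate 1 (edgeR adjusted p 0.0642 to 0.109) and with all 24 libraries in 1 model (edgeR adjusted p = 0.124), while without PM-LC replicate 2 the value rose to 7.13 (edgeR adjusted p = 1.79e-05).

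**Figure D2:**
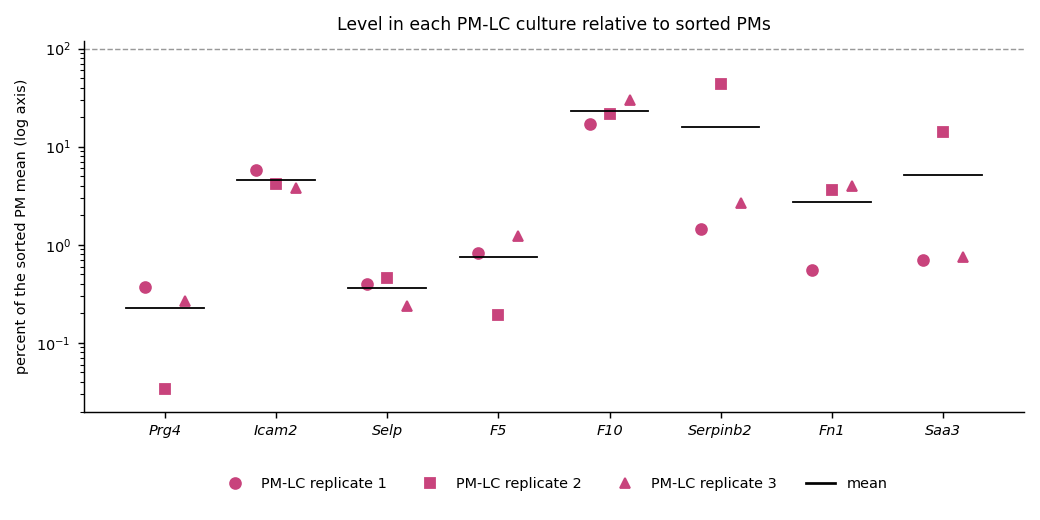
Level of each gene in the 3 PM-LC libraries as a percent of the mean of the 3 sorted PM libraries, on a log axis; symbols are replicates, bars are means, and the dashed line marks 100%. F10 keeps 16.9% to 29.8% and Prg4 0.0337% to 0.376%; replicate 2 (square) is the highest for Serpinb2 (43.9%) and Saa3 (14%) and the lowest for Prg4 and F5.

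The other populations moved differently in culture. MG had almost no reads of these genes when sorted, and 5 of the 8 passed the filter on low counts. F10, Fn1 and Saa3 were called higher in MG-LCs, where 25.2% of all genes were. They passed the filter only through MG-LCs, as all sorted MG libraries together held 1, 13 and 6 reads of them. A call could thus only go in that direction, and nothing is drawn from their count beside that share. Fn1 was at 1643, 5.50 and 233 CPM in MG-LCs, against at most 0.189 CPM in sorted MG (sorted over cultured -12.55 ± 2.48, edgeR adjusted p = 0.00961). Saa3 was at 402, 0.696 and 14.3 CPM (-11.44 ± 2.93, edgeR adjusted p = 0.0218). F10 rose from 1 read to 118 reads, a ratio of 128 (95% counting interval 22.6 to 5102, edgeR adjusted p = 0.00824). Serpinb2, which did not pass the filter on low counts, was at 770, 0.224 and 88.6 CPM in MG-LCs, at least 12010-fold higher than in MG. MG-LC replicate 1 was the highest for Fn1, Saa3, Serpinb2, Prg4, Selp and F5, and none of these 3 calls held without MG replicate 1 or MG replicate 3 (edgeR adjusted p 0.0532 to 0.0961). Without MG replicate 2, Fn1 and Saa3 did not pass either. By limma-voom neither of these passed (adjusted p = 0.209 and 0.334). Icam2 did not pass (-2.76 ± 0.98, edgeR adjusted p = 0.0583), but did without MG-LC replicate 1 (-3.10, edgeR adjusted p = 0.0427) or MG-LC replicate 3 (-3.25, edgeR adjusted p = 0.021) and by DESeq2 (adjusted p = 0.00682).

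In AMs F10 was lower after culture, and Saa3 and Serpinb2 were higher. F10 fell from 235 to 86.1 ± 40.4 CPM (SD, n = 3), a log2 fold change of 1.45 ± 0.29 (edgeR adjusted p = 0.00534, and 0.127 with all 24 libraries in 1 model). Saa3 rose from at most 0.230 CPM to 35.6, 255 and 5229 CPM in AM-LCs (sorted over cultured -13.20 ± 2.43, edgeR adjusted p = 0.00406), so that AM-LC replicate 3 held more than any PM-LC. Serpinb2 rose from 0 reads in each AM library to 10.2, 106 and 369 CPM, at least 5932-fold. By limma-voom neither rise passed (adjusted p = 0.273 for Saa3 and 0.156 for Serpinb2). Fn1 was at 3.52, 34.4 and 352 CPM in AM-LCs, all below the 827 to 1151 CPM of sorted AMs, and did not pass the test (2.77 ± 1.34, edgeR adjusted p = 0.125), though it did without AM-LC replicate 3 (5.64, edgeR adjusted p = 0.0045), by limma-voom (4.83, adjusted p = 0.0139) and with the replicate block (4.81, edgeR adjusted p = 0.0414). Of the 5 genes tested in AMs, 1 was thus higher and 2 lower when sorted, where 22.9% and 25.9% of all genes were. The 2 lower genes, Saa3 and Serpinb2, passed the filter only through AM-LCs, as sorted AMs held 23 and 0 reads of them. For these 2 only a lower level when sorted could be called, so nothing is drawn from their count beside that share.

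KCs showed no called change. Of the 8 genes 4 were tested, and 0 passed by edgeR, DESeq2 or limma-voom, with 0 at an unadjusted p under 0.05, where edgeR called 33.8% of all genes. Icam2 was at 27.7 to 40.1 CPM in KCs and 13.8, 26.2 and 36.1 CPM in KC-LCs (0.37 ± 0.38). Fn1 was at 0, 0.0996 and 4.29 CPM in KC-LCs, all below the sorted range, with a log2 fold change of 3.93 ± 1.78 (edgeR adjusted p = 0.124), and it passed without KC-LC replicate 3 (8.70, edgeR adjusted p = 0.0214). Prg4 had 3 reads and Serpinb2 49 reads in all KC-LC libraries.

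**Figure D3:**
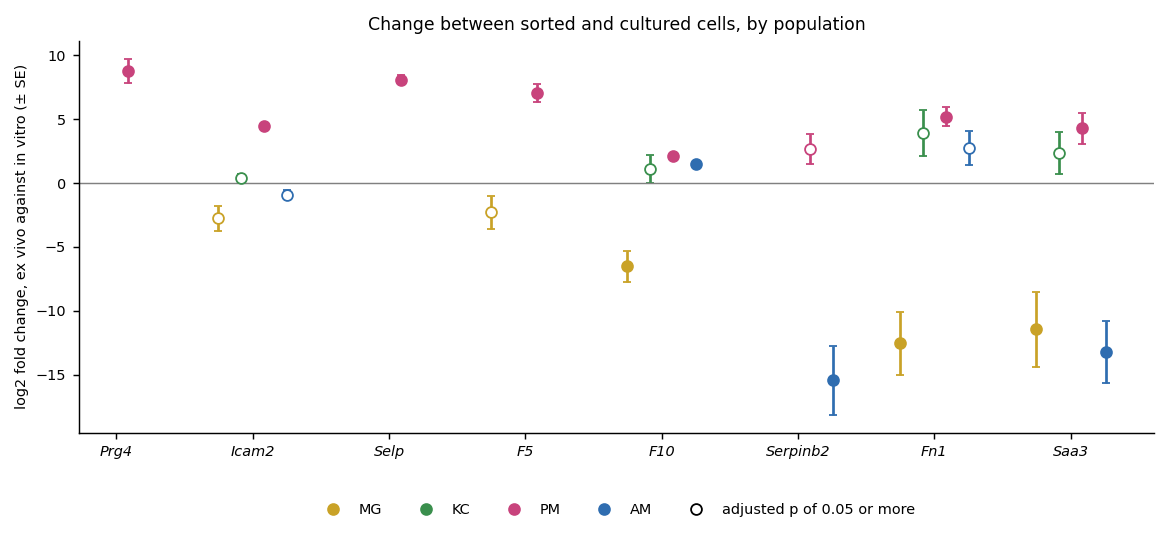
Log2 fold change of sorted ex vivo over cultured in vitro cells with its SE, for each gene and population that passed the filter on low counts; filled points have an adjusted p under 0.05. PM points lie between 2.13 and 8.79, while Serpinb2 and Saa3 in AMs (-15.44 and -13.20) and Fn1 and Saa3 in MG (-12.55 and -11.44) lie below 0. The values near or below -10 compare with groups at or near 0 reads and depend on the prior count of the fit.

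The change of each gene in PMs was compared with the mean change in the other 3 populations in 1 model over 24 libraries. For 7 of the 8 genes the log2 fold change of sorted over cultured was higher in PMs than that mean. This held for 6.96% of the 17408 genes tested. Prg4, Selp, F5 and Serpinb2 averaged at most 2.15 CPM in sorted MG, KCs and AMs, so they could hardly fall there. A higher value in PMs was thus favoured in advance, and nothing is drawn from the count beside that share. The test compares signed changes, so a rise in culture in MG or AMs adds to the difference as a fall in PMs does. In the fits by population, Saa3 changed by 4.27 in PMs and 2.36 in KCs, and by -11.44 in MG and -13.20 in AMs. Icam2 had the smallest error, with a log2 difference of 5.54 ± 0.73 (edgeR adjusted p = 3.6e-05), and F10 differed by 3.45 ± 0.96 (edgeR adjusted p = 0.0208). The F10 value includes MG, where sorted cells held 1 read in all and the change was -6.51, beside 1.10 in KCs and 1.45 in AMs. Prg4 did not pass (9.74 ± 3.36, edgeR adjusted p = 0.0612), though it did by limma-voom (adjusted p = 0.000246), without KC replicate 1 (10.65, edgeR adjusted p = 0.0441) or MG-LC replicate 3 (edgeR adjusted p = 0.0475) and with the replicate block (edgeR adjusted p = 0.0476). For Selp and Serpinb2 the values rest on groups with 0 reads in MG and AMs and are no bound. Leaving out PM-LC replicate 1 left 4 of the 8 called, as F10, Serpinb2 and Fn1 no longer passed (edgeR adjusted p 0.0626 to 0.096), and without KC-LC replicate 1 Selp did not pass (edgeR adjusted p = 1.0).

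Between cultures the lead of the PM cells was not detectable for any of the 8 genes by edgeR. Compared with MG-LCs, KC-LCs and AM-LCs, 0 of 8 passed in each case, where 0.0743%, 0.108% and 5.29% of all 14813 genes were called. At an unadjusted p under 0.05, 2, 6 and 1 of the 8 passed, DESeq2 called 2, 6 and 1, and limma-voom 0, 1 and 1. DESeq2 also called more of all genes than edgeR, as given further below. For the unadjusted p and limma-voom no share over all genes is given. Nothing is thus drawn about the 8 genes from these counts. The PM-LC libraries lay above all KC-LC libraries for 8 of 8 genes, above all MG-LC libraries for 3 and above all AM-LC libraries for 1, where 19.7%, 15.1% and 31.2% of genes did not overlap. The 3 comparisons share the PM-LC libraries.

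F10 came nearest against MG-LCs, where it was at 0.538, 1.97 and 0.514 CPM beside the 81.5 to 144 CPM of PM-LCs (log2 fold change 6.75 ± 1.15, edgeR adjusted p = 0.0515). In AM-LCs it was at 69.8, 132 and 56.5 CPM, which overlapped the PM-LC range (0.33 ± 0.89, edgeR adjusted p = 0.873). AM-LCs in turn held more F10 than MG-LCs (MG-LCs against AM-LCs -6.42 ± 1.14, edgeR adjusted p = 0.011) and KC-LCs (-4.81 ± 1.05, edgeR adjusted p = 0.0234), where 4.95% and 4.72% of all genes were higher in AM-LCs. The difference from KC-LCs was not called without KC-LC replicate 2 or 3 or AM-LC replicate 2 (edgeR adjusted p 0.0692 to 0.0836). Icam2 came nearest against AM-LCs, which held 3.98, 7.55 and 5.74 CPM (3.02 ± 0.78, edgeR adjusted p = 0.0509). These near misses passed in some fits without 1 library: Icam2 without MG-LC replicate 1, 2 or 3 (edgeR adjusted p 0.0113 to 0.0347), and F10 without MG-LC replicate 2 or KC-LC replicate 1 (edgeR adjusted p = 0.0495 and 0.0073). For Fn1 and Serpinb2 the MG-LC mean was above the PM-LC mean, with log2 fold changes of -0.44 ± 1.94 and -0.63 ± 2.05 and wide overlap. Both errors were larger than the differences. Selp was at 9.14 CPM in AM-LC replicate 3 and at 0.0652 and 0 CPM in the other AM-LCs, and so ranged from below to above every PM-LC within 1 group.

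**Figure D4:**
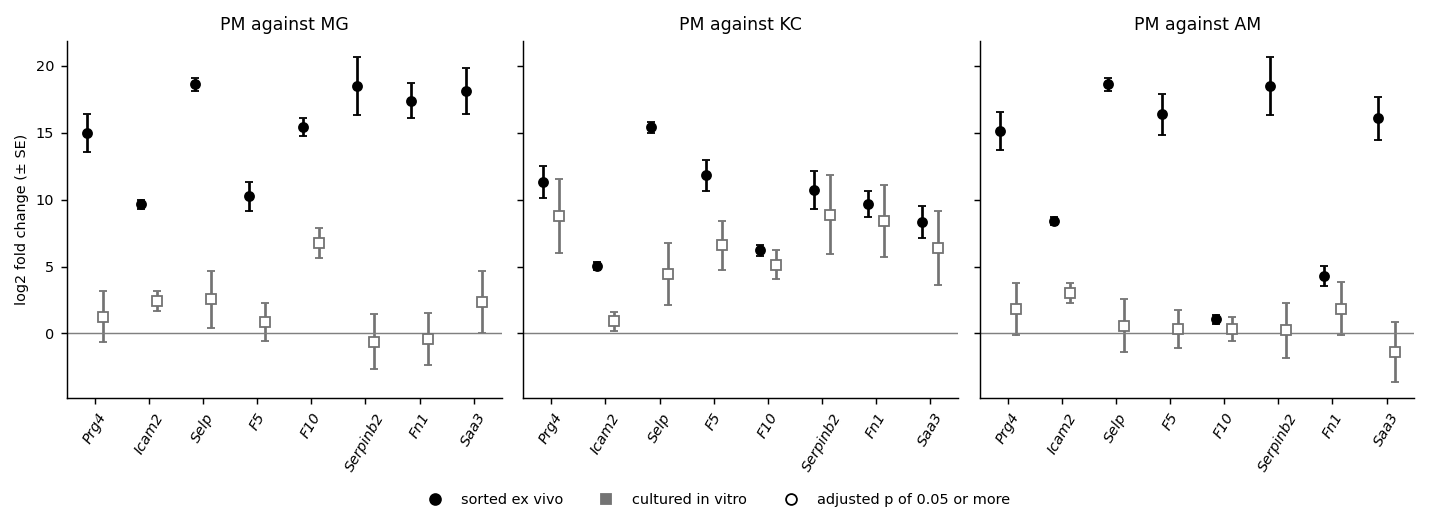
Log2 fold change with its SE of PMs against MG, KCs and AMs, sorted (black circles) and cultured (grey squares); filled symbols have an adjusted p under 0.05. All sorted values pass, from 1.05 (F10 against AMs) upward, and no cultured value does; sorted values above 15 compare with groups at or near 0 reads.

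Between cultures, several of the genes were highest in libraries rich in fibroblast and mesothelium RNA. Fibroblasts make fibronectin, and the list of 11 genes (Col1a1, Col1a2, Col3a1, Dcn, Lum, Pdgfra, Msln, Upk3b, Lrrn4, Wt1 and Krt19) was summed in each library. In PM-LCs the sum was 25, 2248 and 373 CPM in replicates 1 to 3, with all 11 genes detected in each, against 0.191 to 13.1 CPM in sorted PMs. In MG-LCs it was 30890, 7.51 and 1015 CPM, in AM-LCs 21.2, 211 and 1705 CPM, and in KC-LCs 0.0240, 1.99 and 30.2 CPM. The sum of 919 to 1058 CPM in sorted AMs was Krt19, an epithelial keratin, but for at most 0.718 CPM.

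Serpinb2 followed the same order of cultures at the top. Its 3 highest cultures, MG-LC replicate 1 (770 CPM), PM-LC replicate 2 (529 CPM) and AM-LC replicate 3 (369 CPM), were the 3 with the highest fibroblast and mesothelium sums, in that order. Fn1 and Saa3 were each also highest in those libraries of the MG-LCs and AM-LCs, while in PM-LCs Fn1 was at 715 CPM in replicate 3 and 651 CPM in replicate 2. Selp was the highest of its group in all 3 of these libraries (1.59, 6.08 and 9.14 CPM), and Prg4 and F5 were in MG-LC replicate 1, while in AM-LCs both were highest in replicate 3 and in PM-LCs both were lowest in replicate 2. Icam2 and F10 were highest of their groups in none of the 3 libraries, and in MG-LC replicate 1 Icam2 was at 4.07 CPM, below the 20.6 CPM of replicate 2. The part of these cells in the results was not tested. Without MG-LC replicate 1, PM-LC replicate 2 and AM-LC replicate 3 together, 0 of 8 genes were called in PM-LCs against MG-LCs, 1 against KC-LCs and 1 against AM-LCs, in both cases Prg4 (9.29, edgeR adjusted p = 0.0217, and 6.80, edgeR adjusted p = 0.0105). This omission was chosen after seeing the data. It takes out the highest Prg4 library of the MG-LCs (14.2 CPM) and AM-LCs (9.75 CPM) and the lowest of the PM-LCs (1.87 CPM). A Prg4 call was thus favoured by the choice, and nothing is drawn from it.

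**Figure D5:**
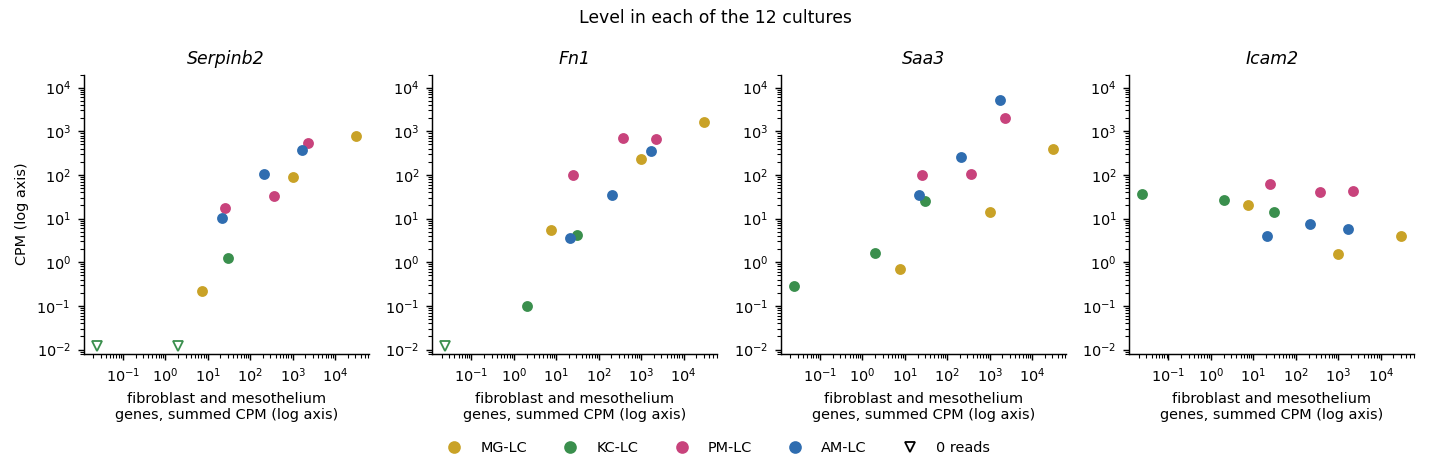
CPM of Serpinb2, Fn1, Saa3 and Icam2 in each of the 12 cultures against the summed CPM of 11 fibroblast and mesothelium genes, both on log axes; open triangles mark 0 reads. Serpinb2 has 0 reads in KC-LC replicates 1 and 2 and 1.24 CPM in replicate 3. It reaches 770 CPM in MG-LC replicate 1, at a sum of 30890 CPM, while Icam2 is at 4.07 CPM there. The order is not steady, as Serpinb2 is at 106 CPM in AM-LC replicate 2 (sum 211 CPM) and 88.6 CPM in MG-LC replicate 3 (sum 1015 CPM).

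Other genes of large PMs were mostly higher in the sorted cells. Of 16 further large PM genes, all tested, 13 were higher in sorted PMs than in PM-LCs, 0 lower and 3 not called, where 12.1% of all genes were higher and 16.8% lower, with a median log2 fold change of 3.66. These lists were chosen with results of these data known. Among them, Gata6, the master regulator of the large PM, was at 144 CPM sorted and 17 CPM cultured (3.07 ± 0.60, edgeR adjusted p = 0.00879). Alox15, a lipoxygenase, went from 15090 to 34.1 CPM (8.79 ± 1.24, edgeR adjusted p = 0.0023), and Cxcl13, a B cell chemokine, from 5285 to 14.2 CPM (8.54 ± 0.94, edgeR adjusted p = 0.000803). The matrix protein gene Thbs1 went from 4695 to 309 CPM (3.91 ± 0.78, edgeR adjusted p = 0.00985). The retinoid receptor Rxra (0.33 ± 0.33) and the regulator Bhlhe40 (-0.29 ± 0.23) did not pass.

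The wider coagulation and fibrinolysis genes moved in both directions. Of 30 genes, 21 were tested, and 5 were higher in sorted PMs, 7 lower and 9 not called, against 12.1% and 16.8% of all genes, with a median log2 fold change of -0.52. The transglutaminase gene F13a1 (830 CPM sorted, 21.9 CPM cultured, edgeR adjusted p = 0.006) and Pros1, which encodes the anticoagulant protein S (783 and 105 CPM, edgeR adjusted p = 0.000927), were higher in sorted PMs. Lower in sorted PMs were F3, which encodes tissue factor (1.89 and 15.5 CPM, edgeR adjusted p = 0.036), the protein C receptor gene Procr (0.619 and 42.5 CPM, edgeR adjusted p = 0.000333), Plau, which encodes urokinase (2.06 and 15.3 CPM, edgeR adjusted p = 0.00174), and Gas6 (6.36 and 649 CPM, edgeR adjusted p = 7.41e-05). F7 was level at 137 and 142 CPM, with a log2 fold change of -0.06 ± 0.19 (edgeR adjusted p = 0.852).

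Of 19 partners in adhesion and matrix binding, 18 were tested, with 3 higher in sorted PMs, 6 lower and 9 not called, against 12.1% and 16.8% of all genes. Selplg, which encodes the P-selectin ligand PSGL-1, went from 1501 to 282 CPM (2.41 ± 0.16, edgeR adjusted p = 9.38e-05). Itgal, which encodes the LFA-1 chain that binds ICAM-2, was lower in sorted PMs (6.19 and 61.3 CPM, -3.31 ± 0.44, edgeR adjusted p = 0.00172). So was Itga5, a chain of the fibronectin receptor (32.2 and 210 CPM, -2.71 ± 0.19, edgeR adjusted p = 0.000138). The median log2 fold change of the list was -0.39.

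Around Saa3, 18 of 20 acute-phase genes and serum amyloid receptors were tested, with 8 higher in sorted PMs, 2 lower and 8 not called (12.1% and 16.8% of all genes) and a median log2 fold change of 0.71. The formyl peptide receptor genes Fpr1 (129 and 0.419 CPM, edgeR adjusted p = 0.000194) and Fpr2 (16.8 and 0.120 CPM, edgeR adjusted p = 0.0024) were higher in sorted PMs, and Il1b was lower (0.537 and 11.9 CPM, edgeR adjusted p = 0.0321). Saa1, a serum amyloid gene near Saa3, had 17 to 32 reads per PM library, against 304674 to 686382 for Saa3.

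Over the 24 libraries, the genes with the pattern most like each member were found by the Pearson correlation of log2 CPM, given as a description. For Prg4 they were Fam20a (0.95), Ltbp1 (0.927) and Alox15 (0.912), and for Selp they were Ltbp1 (0.944), Fam20a (0.937) and Rax (0.914). F5 was most like Ednrb (0.92), Ltbp1 and Alox15. F10 stood apart, with F7 (0.948), Ak8 and Prr13. Icam2 was most like Padi4 (0.908), Hgsnat and Dmac1, and Fn1 most like Bcam (0.914), Mst1r and Plcb1. Serpinb2 was most like Eml1 (0.914), Car6 and Acpp, and Saa3 most like Ptgis (0.911), Car6 and Ramp3. Between members, Prg4 and Selp correlated at 0.934 and Selp and F5 at 0.9 over the 24 libraries, which share their 8 groups. Over the 12 cultures Serpinb2 correlated with Fn1 at 0.922 and with Saa3 at 0.907, and Icam2 with Serpinb2 at -0.402.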

How the data were processed

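RNA of 24 libraries (8 groups of 3) was extracted with the RNeasy Micro kit and made into libraries without strand marking. The authors deposited 1 table of raw read counts per Ensembl gene, in whole numbers and not normalized. Their methods name Trimmomatic, STAR and the mouse build mm10, while the submitters' processing notes list Trimmomatic 0.36, STAR 2.5.2b and the build hg19, although the identifiers in the table are of mouse. Names and coordinates were taken from GENCODE for GRCm38 (mm10), which gave 45143 of 45706 rows a symbol. Per those methods, STAR also gave the reads per gene.

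From the counts, CPM was computed with TMM scaling over 24 libraries, and RPKM with the union of exons. Tests used edgeR 4.0.16 (quasi-likelihood, two-sided, TMM, filterByExpr with a minimum count of 10, Benjamini-Hochberg adjustment over all genes tested, threshold 0.05). Sorted and cultured cells of a population were fitted on their 6 libraries, populations on the 12 sorted or 12 cultured libraries, and the difference of changes on all 24. The steps were also run on simulated counts with known changes, and the outcome is not reported here. The study's own method, limma-voom (limma 3.58.1), DESeq2 1.42.0, other scaling and filters, a replicate block and leaving out each library were the alternatives. Folds against groups at 0 reads are bounds on a floor of 3 reads over the group.

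The members and lists were chosen with earlier results of these data known. Named genes are the 8 members, genes of the fixed lists, and for each member the 3 most Pearson-like genes (log2 CPM, prior count 2, 17369 genes), leaving out the other members and predicted genes. List genes named with values were picked after their values were seen.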

Additional observations from a re-analysis of the deposited data

Results flagged for a closer look

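In PMs the log2 fold change of sorted over cultured exceeded the signed mean of MG, KCs and AMs for 7 of the 8 genes. The difference itself was tested (edgeR, adjusted p under 0.05 over 17408 genes, all 24 libraries). Rises in culture in MG or AMs add to it as falls in PMs do. The log2 differences were 5.54 for Icam2, 14.94 for Selp, 10.14 for F5, 3.45 for F10, 13.01 for Serpinb2, 7.12 for Fn1 and 11.67 for Saa3, where 6.96% of all genes were called in this direction. The edgeR adjusted p was 0.000595 for Selp, 0.000988 for F5, 0.0197 for Serpinb2, 0.0284 for Fn1 and 0.00916 for Saa3. The values of Selp, F5, F10, Serpinb2, Fn1 and Saa3 include groups at or near 0 reads and depend on the prior count. Selp, F5 and Serpinb2 averaged at most 0.863 CPM in sorted MG, KCs and AMs and could hardly fall there. Nothing is thus drawn from the count of genes beside the share of all genes. In the fits by population, F10 changed by 2.13 in PMs, 1.10 in KCs, 1.45 in AMs and -6.51 in MG. For Fn1 the values were 5.19, 3.93, 2.77 and -12.55 in the same order. Sorted MG held 1 read of F10 and 13 of Fn1. Fn1 did not pass without PM replicate 2, PM-LC replicate 1, 2 or 3, or KC-LC replicate 3, and Serpinb2 did not without PM-LC replicate 1 or 3 or KC-LC replicate 3. F10 did not pass without PM-LC replicate 1 (edgeR adjusted p = 0.065), nor Selp without KC-LC replicate 1 (edgeR adjusted p = 1.0). By limma-voom Serpinb2 and Fn1 did not pass (adjusted p = 0.0904 and 0.221).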

How the results depend on the processing

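The fall of the 8 genes in PM-LCs and their lead in sorted PMs kept their direction under every alternative run. The number of genes called in PMs against PM-LCs was 7, and 6 to 8 over the alternatives. Against MG, KCs and AMs it was 8, with 7 to 8 over the fits without 1 library. By DESeq2, which gave 2 members no adjusted p in each, it was 6. Against AMs, F10 and Fn1 lost their calls with all 24 libraries in 1 model (edgeR adjusted p = 0.302 and 0.0759). F10 also lost it with an absolute log2 fold change above 1.5.

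For MG against MG-LCs the count moved from 3 to 1 by limma-voom, 1 with a filter of CPM above 1 in 3 libraries, 5 without a filter and 7 with all 24 libraries in 1 model, and ran from 0 to 5 without 1 library. For KCs it moved from 0 to 1 without a filter and with all 24 libraries, and from 0 to 1 without 1 library. For AMs it was 3, 5 without a filter, 2 by limma-voom or with an absolute log2 fold change above 1.5, 4 with all 24 libraries and 3 to 5 without 1 library.

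Between cultures the count of 0 moved as follows. Against MG-LCs it was 2 by DESeq2, 1 without a filter, 1 with the CPM filter, 2 with all 24 libraries and 0 to 2 without 1 library. Against KC-LCs it was 6 by DESeq2, 1 by limma-voom, 3 with all 24 libraries and 1 without MG-LC replicate 1, PM-LC replicate 2 and AM-LC replicate 3 together, an alternative chosen after seeing the data. Against AM-LCs it was 1 by DESeq2, limma-voom, either filter change, all 24 libraries and that joint omission, and 0 to 1 without 1 library. Over all genes, DESeq2 called 864, 1004 and 2078 and the model of all 24 libraries 463, 447 and 1807, against 11, 16 and 784 by edgeR. The difference of changes had 7 genes called, and 4 to 8 without 1 library; over all genes it had 2304 by edgeR and 3472 by DESeq2. Of all genes, 3921 were called in PMs against PM-LCs, 2074 to 2323 without a PM library and 2407 with an absolute log2 fold change above 1.5. For MG 6696 were called and 2928 to 3062 without an MG library, and for KCs 4608 and 2563 or 2971 without KC-LC replicate 2 or 1.

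Reversed signs, none of them called, were found only between populations. Against MG-LCs, Serpinb2 was 1.48 by limma-voom, and Fn1 was 1.44 by limma-voom and 1.75 under the joint omission. Against AM-LCs, Serpinb2 was -0.15 by limma-voom and -1.23 under the joint omission, and Saa3 was 0.88 with the replicate block. Without 1 library, Serpinb2 ran from -3.63 to 2.13, Fn1 from -1.02 to 2.03 and Saa3 from -0.55 to 6.62 against MG-LCs, and F5 from -0.25 to 1.10, Serpinb2 from -2.77 to 1.77 and Saa3 from -4.25 to 2.36 against AM-LCs. Between the other populations, leaving out 1 library was added after seeing the data. MG against AMs then ran from -0.14 to 1.34 for Prg4, KCs against AMs from -1.85 to 6.38 for F5 and from 0 to 8.32 for Serpinb2, and MG against KCs from -8.32 to 0 for Serpinb2. MG-LCs against AM-LCs ran from -5.04 to 5.03 for Prg4, -0.97 to 1.07 for Icam2, -3.05 to 4.47 for Selp, -2.46 to 0.26 for F5, -1.91 to 2.40 for Serpinb2, -0.18 to 5.14 for Fn1 and -8.00 to 0.039 for Saa3, and KC-LCs against AM-LCs from -9.79 to 2.56 for Selp. The cause was not tested. Of 1991 recomputed values of single genes, 1852 kept direction and side of the threshold, 54 lost and 55 gained it, and 30 reversed.

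No pairing by replicate number was seen, as in no pair of groups were all 3 correlations of same-numbered deviations over 0.1. They ran from -0.384 to 0.287 over all pairs and from -0.104 to 0.0313 between PMs and PM-LCs. KC-LCs with AM-LCs came near that limit, at 0.081, 0.093 and 0.0845. With 3 libraries per group, a shared day or mouse cannot be told from these values. With the replicate block 7 genes were called in PMs, 3 in MG, 4 in AMs and 8 for the difference of changes. By Spearman in place of Pearson correlation, 5 of the 24 genes named as most alike remained. Levels under 0.0663 to 0.114 CPM rest on fewer than 3 reads.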
